A study of Saccharomyces cerevisiae with 18 samples.

Results

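The genes described here are 10 members of the glucose uptake system of the budding yeast Saccharomyces cerevisiae: the hexose transporter genes HXT1, HXT2, HXT3, HXT4, HXT5, HXT6, HXT7 and HXT13, and the glucose sensor genes SNF3 and RGT2. They were chosen by name, through their locus tags, from a count table of 6746 features. The rule used no measured value, but the choice was made with earlier results of these data known. Poly(A) RNA was sequenced from 2 genotypes in 3 conditions, with 3 libraries in each of the 6 groups and 18 in all. S121A cells carry histone H2A with alanine in place of serine on a plasmid, and WT cells carry the same plasmid with H2A unchanged. Both are MATa FY406 strains whose chromosomal HTA1-HTB1 and HTA2-HTB2 pairs are replaced by LEU2 and TRP1. Both also carry his3delta200, leu2delta1, ura3-52, trp1delta63 and lys2-128delta, and their HTA1-HTB1 pair is on the plasmid. The plasmid marker is labelled HIS3 in replicate 1, and the labels of replicates 2 and 3 read HIS4 and HIS5. Cells grew to log phase in YPD, a rich glucose medium, at 30 °C, and were then heated for 10 min at 39 °C, exposed for 15 min to 0.4 M NaCl, or left without stress. The 6 groups were heated S121A, heated WT, S121A in NaCl, WT in NaCl, unstressed S121A and unstressed WT. The labels do not say whether replicates were separate cultures, so p-values measure the spread between these libraries, which may be technical.

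Libraries held 39573778 to 53034823 counts, and 3 counts corresponded to 0.0566 to 0.0758 CPM (counts relative to library size) before the TMM scaling used for all CPM values below. Every member had at least 35 counts in every library, and all 10 passed the filter on low counts. The 5 markers of MATa cells (MFA1, MFA2, STE2, STE6 and BAR1) had group means of 43.8 to 1080 CPM. The 3 markers of alpha cells (the MF(ALPHA)1, MF(ALPHA)2 and STE3 genes) had group means of 0.514 to 13.8 CPM. Summed over their list, the MATa markers had 488 to 536 CPM in heated S121A and 420.1 to 488 CPM in heated WT, 1059.7 to 1125 CPM in S121A in NaCl and 1107 to 1242 CPM in WT in NaCl, and 2114 to 2279 CPM in unstressed S121A and 2748 to 2824 CPM in unstressed WT. The alpha markers summed to 12.6 to 20.2 CPM in heated S121A and 10.2 to 11.7 CPM in heated WT, 8.36 to 12.8 CPM in S121A in NaCl and 5.46 to 6.55 CPM in WT in NaCl, and 12.04 to 14.02 CPM in unstressed S121A and 6.95 to 7.004 CPM in unstressed WT. Of the 3 alpha markers 3 were called higher in S121A over WT in heat (all genes 19.5%) and 3 in NaCl (all genes 14.6%). Without stress 2 were higher (all genes 9.05%). Of the 5 MATa markers 3 were higher in heat (all genes 19.5%). In NaCl 1 was higher and 1 lower (all genes 14.6% and 9.19%), and 5 were lower without stress (all genes 14.1%). By edgeR with each chromosome scaled by its own median, unstressed MFA2 and STE2 were not called (adjusted p of 0.0775 and 0.0508). The lower call in NaCl also ended. The plasmid marker gene HIS3 was lower in S121A by edgeR, with log2 fold changes of -0.33 ± 0.10 (adjusted p = 0.0146) in heat, -0.63 ± 0.10 (adjusted p = 9.25e-05) in NaCl and -0.98 ± 0.10 (adjusted p = 1.01e-06) without stress. The 7 strain markers were HTA1, HTB1, HTA2, HTB2, HIS3, LEU2 and TRP1. By edgeR 1 was higher and 2 lower in S121A in heat (all genes 19.5% and 14.2%). In NaCl 4 were lower (all genes 9.19%) and without stress 1 (all genes 14.1%). With each chromosome scaled by its own median, HTB1 was at -0.49 (adjusted p = 0.000271) in heat and -0.42 (adjusted p = 0.00173) in NaCl. HTA1 was then at -0.08 (adjusted p = 0.552) and -0.33 (adjusted p = 0.0209). HIS3 was then at -0.26 (adjusted p = 0.0654) in heat, not called, and it stayed called in NaCl and without stress. LEU2 was scaled as a chromosome III gene, although the labels place it at a replaced histone pair. Its values were -0.33 (adjusted p = 0.00407) in heat, -0.64 (adjusted p = 8.29e-06) in NaCl and -0.69 (adjusted p = 5.39e-06) without stress. The part of these marker differences in the genotype differences below was not tested. Gene counts do not show the altered H2A codon, so HTA1, at 885 to 1704 CPM, cannot check which libraries carry it. HTA2 had group means of 12.3 to 21.5 CPM although the labels give it as replaced, and its part of reads shared with HTA1 was not tested.

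Yeast takes up glucose by facilitated diffusion through a family of related membrane proteins that differ in affinity, and it switches between them as glucose and growth conditions change. Hxt1 and Hxt3 are low-affinity transporters used when glucose is plentiful, while Hxt2, Hxt4, Hxt6 and Hxt7 have higher affinity and are used when it is scarce. Hxt5 has intermediate affinity and is known from slowly growing and stressed cells, and Hxt13 is a divergent family member. Snf3 and Rgt2 resemble transporters but act as receptors: Snf3 senses low glucose and Rgt2 senses high glucose. Their signal leads to loss of Mth1 and Std1, partners of the repressor Rgt1, which binds HXT promoters. A second repressor, Mig1, acts with Cyc8 and Tup1 when glucose is high and is opposed by the kinase Snf1.

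In the R64 build, 3 of the transporter genes stand in a row on the minus strand of chromosome VIII, each a single coding exon. HXT4 (YHR092C) lies at 287081 to 288811, HXT1 (YHR094C) at 290913 to 292625 and HXT5 (YHR096C) at 294669 to 296447, with 2101 and 2043 bases between them. A second row, also on the minus strand, holds HXT7 (YDR342C, 1154216 to 1155928), HXT6 (YDR343C, 1159608 to 1161320) and HXT3 (YDR345C, 1162957 to 1164660) on chromosome IV. SNF3 (YDL194W, 111580 to 114234) and RGT2 (YDL138W, 213351 to 215642) are on the plus strand of chromosome IV. HXT2 (YMR011W) occupies 288079 to 289704 on the plus strand of chromosome XIII, and HXT13 (YEL069C) occupies 21537 to 23231 on the minus strand of chromosome V.

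Several of these genes share sequence over the 50-base read length that the labels give, and the sources used here do not say how reads with several matches were counted. Of the 1664 windows of 50 bases in the HXT6 coding sequence, 95.1% also occur in HXT7. The pair differ at 3 of 1713 coding bases, counted from 1 at the start codon: T1632C, G1666A and T1677C, with the HXT6 base first. The end of each coding sequence is shown because it holds every base that tells the 2 genes apart, in capitals (RefSeq R64, bases 1625 to 1713 of the coding sequence, minus strand, chrIV:1159608-1159696 for HXT6 and chrIV:1154216-1154304 for HXT7).
HXT6: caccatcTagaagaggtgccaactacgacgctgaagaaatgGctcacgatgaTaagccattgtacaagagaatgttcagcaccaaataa
HXT7: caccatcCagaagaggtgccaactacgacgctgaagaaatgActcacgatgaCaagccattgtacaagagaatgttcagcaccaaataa
Counts of HXT7 were 1.22 to 1.33 times those of HXT6 in all 18 libraries, so the values of the pair are best read as one. HXT3 shared 13.1% of its windows with HXT6 and with HXT7, and HXT1 shared 4.21% with HXT5. HXT13 shared 26.8% with HXT17, 9.36% with HXT15 and 9.11% with HXT16. HXT2, SNF3 and RGT2 had 0 windows found elsewhere in the genome.

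The upstream regions differ in the motifs they hold, and stretches of 5 of them are shown because these genes moved in different directions under stress. CGGANNA, the core bound by Rgt1, was searched on both strands of the 1000 bases before each start codon, a window added to the planned one after the files were in hand. HXT3 had 9 matches, a count reached by 0.0167% of 6002 genes with such a window, and HXT1 had 8, reached by 0.0333%. Such shares of all genes, here and below, include the members themselves. HXT5 had 4, HXT2, HXT4 and HXT6 had 3 each and HXT7 had 2, while HXT13, SNF3 and RGT2 had 0. At least 1 match occurs before 66.6% of all genes. The stretches below lie upstream of HXT3 (chrIV:1164961-1165220, minus strand) and of HXT1 (chrVIII:293006-293125, minus strand), with the Rgt1 core or its reverse complement in capitals.
HXT3: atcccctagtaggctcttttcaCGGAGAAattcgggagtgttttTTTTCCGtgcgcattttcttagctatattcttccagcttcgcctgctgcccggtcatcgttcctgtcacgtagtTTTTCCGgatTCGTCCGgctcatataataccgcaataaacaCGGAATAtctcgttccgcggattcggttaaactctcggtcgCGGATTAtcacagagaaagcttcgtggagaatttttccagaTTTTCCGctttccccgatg
HXT1: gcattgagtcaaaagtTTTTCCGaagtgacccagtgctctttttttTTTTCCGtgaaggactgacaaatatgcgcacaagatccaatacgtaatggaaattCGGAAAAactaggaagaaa
AGGGG, the stress response element bound by Msn2 and Msn4, had 5 matches before HXT6, 4 before HXT7, 3 before HXT13 and 2 before HXT5. Counts at least that high occur before 0.633%, 2.23%, 6.83% and 21.1% of all genes. HXT1, HXT3, HXT4 and RGT2 had 1 match each, a count reached by 55% of genes, and HXT2 and SNF3 had 0. The next stretches, on the minus strand, lie upstream of HXT5 (chrVIII:296738-296927), HXT6 (chrIV:1161821-1161900) and HXT7 (chrIV:1156289-1156518) and show AGGGG or its reverse complement in capitals.
HXT5: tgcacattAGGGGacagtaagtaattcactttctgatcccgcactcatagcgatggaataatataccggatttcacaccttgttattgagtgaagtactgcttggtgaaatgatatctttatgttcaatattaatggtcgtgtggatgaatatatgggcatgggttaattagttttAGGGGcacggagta
HXT6: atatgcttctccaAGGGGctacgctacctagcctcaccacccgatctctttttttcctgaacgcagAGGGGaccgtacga
HXT7: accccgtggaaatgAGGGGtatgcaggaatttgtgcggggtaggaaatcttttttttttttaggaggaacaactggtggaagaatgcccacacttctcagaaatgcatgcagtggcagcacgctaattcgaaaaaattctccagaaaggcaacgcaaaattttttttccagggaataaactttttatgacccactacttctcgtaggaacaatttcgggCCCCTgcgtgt

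The Mig1 core was searched in 4 forms on both strands, the run GGGG after a C or T that itself follows a G or C. It had 4 matches before HXT2 and HXT4, a count reached by 0.833% of genes. There were 3 before HXT6 and HXT13 (2.88% of genes), 2 before HXT1, HXT3, HXT7 and SNF3 (12%), 1 before HXT5 (41.8%) and 0 before RGT2. The heat shock element core GAANNTTC had 2 matches before HXT1 and HXT3 (7.4% of genes) and 0 before the other 8 genes. One pair of matches of different motifs overlapped, an Rgt1 core and a heat shock core 641 to 632 bases before HXT3. In the planned window, from 250 bases before the start codon to 50 after it, the Mig1 core had 2 matches at HXT1, HXT3 and HXT4 (0.899% of 6007 genes) and 1 at HXT2 and SNF3 (11.7%). The stress element had 1 there at HXT1, HXT5, HXT7 and HXT13 (21.6%), the Rgt1 core 1 at HXT1 (26.4%) and the heat shock core 1 at HXT3 (11.8%). The HXT5 match lies after the start codon, inside the coding sequence, and the other matches in that window lie before it. A match is a string of letters, and binding was not measured.

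**Figure D1:**
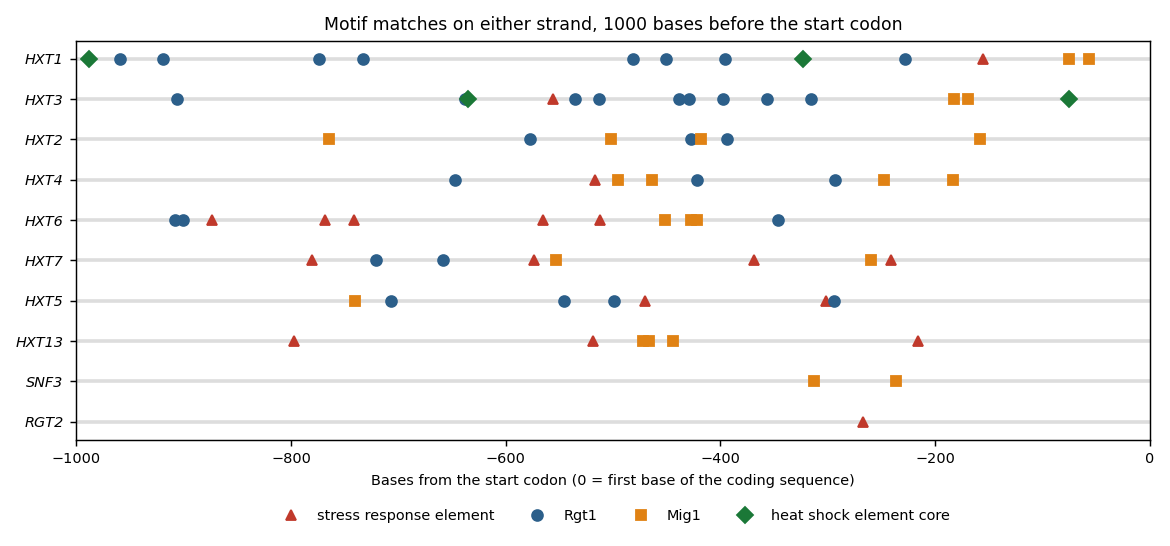
Motif matches on either strand in the 1000 bases before the start codon of each gene, with the distance in bases on the horizontal axis and genes down the page. Rgt1 cores (circles) are densest before HXT3 and HXT1, with 9 and 8, and stress elements (triangles) before HXT6 and HXT7, with 5 and 4.

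Both stresses changed which transporter transcripts the cells held. Per kb of coding length, HXT3 was the most abundant of the 8 transporter transcripts without stress, HXT1 in NaCl and the HXT6 and HXT7 pair in heat. HXT6 and HXT7 together made up 63.2% ± 1.88 of the summed transporter level in heated S121A and 68.5% ± 0.474 in heated WT (SD, n = 3). The pair held 20.7% ± 0.405 in unstressed S121A and 20.4% ± 1.13 in unstressed WT. In NaCl HXT1 alone held 66.2% ± 0.0986 in S121A and 69.6% ± 1.52 in WT, and in heat its share was 1.11% ± 0.0702 in S121A and 1.02% ± 0.0431 in WT. Without stress HXT1 held 25.4% ± 0.109 in S121A and 22.7% ± 0.702 in WT, behind HXT3 with 40.3% ± 0.492 in S121A and 43.7% ± 0.488 in WT. A share among the 8 does not depend on how libraries are scaled to each other. It does depend on how reads that match both HXT6 and HXT7 were counted, which is not given.

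The summed level of the 8 transporters was higher in both stresses. It was 20744 ± 1033 CPM in heated S121A and 15673 ± 2121 CPM in heated WT, and 20247 ± 215 CPM in S121A in NaCl and 15402 ± 984 CPM in WT in NaCl (SD, n = 3). Without stress it was 2463 ± 109 CPM in S121A and 2775 ± 51.5 CPM in WT. The sums too depend on how reads shared by HXT6 and HXT7 were counted. In these bulk samples, fewer cells that express a gene and less RNA per cell cannot be told apart.

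**Figure D2:**
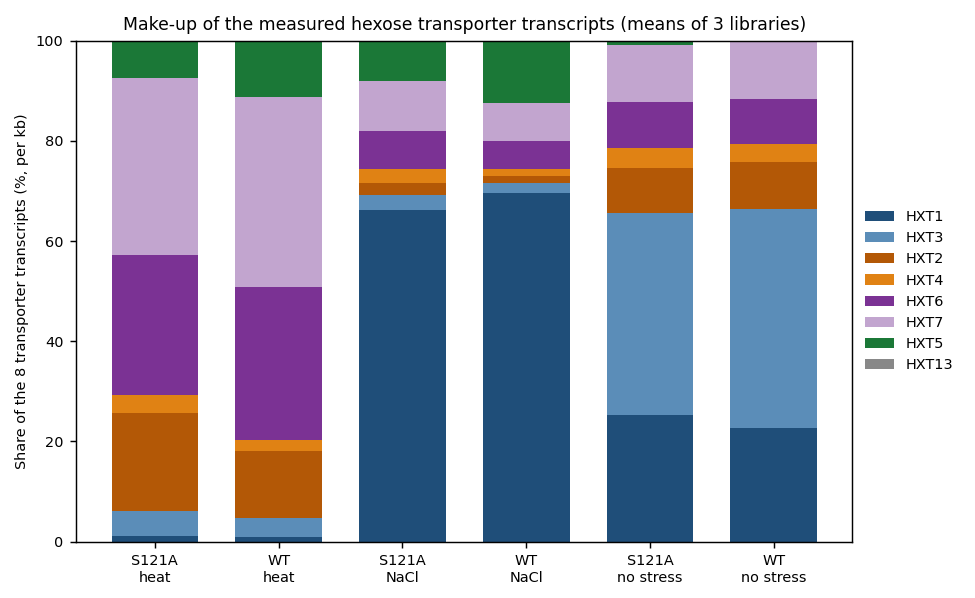
Share of each transporter in the summed level of the 8 transporter transcripts per kb of coding length (percent, vertical axis) in each of the 6 groups (bars, means of 3 libraries). HXT6 and HXT7 fill most of the heat bars, HXT1 most of the NaCl bars, and HXT3 and HXT1 most of the bars without stress.

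Heat raised the high-affinity transporters, HXT5, HXT13 and both sensors, and lowered HXT1. In heated S121A 8 of the 10 genes rose and 1 fell at an adjusted p under 0.05, with a median log2 fold change of 2.69 (-0.01 over all 6395 genes tested). Of all genes 40.3% rose and 39.7% fell there. In heated WT 8 rose and 2 fell, with a median of 1.94 (all genes 0.02), where 40.6% of all genes rose and 39.3% fell. Under NaCl 9 rose and 1 fell in S121A, with a median of 1.89 (all genes -0.01), where 35.8% of all genes rose and 35.3% fell. In WT 8 rose and 2 fell under NaCl, with a median of 1.15 (all genes -0.01), where 36.3% of all genes rose and 37.2% fell. So many genes responded to either stress that the count of responding members says little, and the sizes and directions carry the description. The comparisons with heat and with NaCl share the unstressed libraries of each genotype. Scaling by library totals in place of TMM moved the median of all genes by -0.61 in heated S121A, -0.39 in heated WT, -0.29 in S121A in NaCl and -0.13 in WT in NaCl (log2). Folds below are relative to TMM.

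Heated and salt-treated cells were also set against each other. In S121A 7 of the 10 genes were higher in heat than in NaCl and 1 was lower, where 30.6% of all genes were higher and 33.6% lower. In WT 6 were higher and 2 lower, where 32.9% of all genes were higher and 33.2% lower. More members differed between the genotypes under stress than without it. Heated S121A had 8 members above heated WT and 0 below it, with a median log2 fold change of 0.46 (all genes -0.0022), where 19.5% of all genes were higher and 14.2% lower. The 0 is from edgeR, with 1 member lower at an unadjusted p under 0.05 and 0 lower by DESeq2. In NaCl 7 were higher in S121A and 1 was lower, with a median of 0.81 (all genes 0.0036), where 14.6% of all genes were higher and 9.19% lower. Without stress 2 were higher in S121A and 2 lower, with a median of -0.10 (all genes -0.02), where 9.05% of all genes were higher and 14.1% lower.

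The response difference, taken as the stress response of S121A less that of WT, tests directly whether the genotypes responded by different amounts. For heat it was positive in 8 members and negative in 1, where 15.5% of all genes were positive and 7.08% negative. For NaCl it was positive in 5 and negative in 1, where 6.82% of all genes were positive and 1.53% negative. HXT5 was the negative one in both cases. With library totals alone 4 members were positive for heat.

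**Figure D3:**
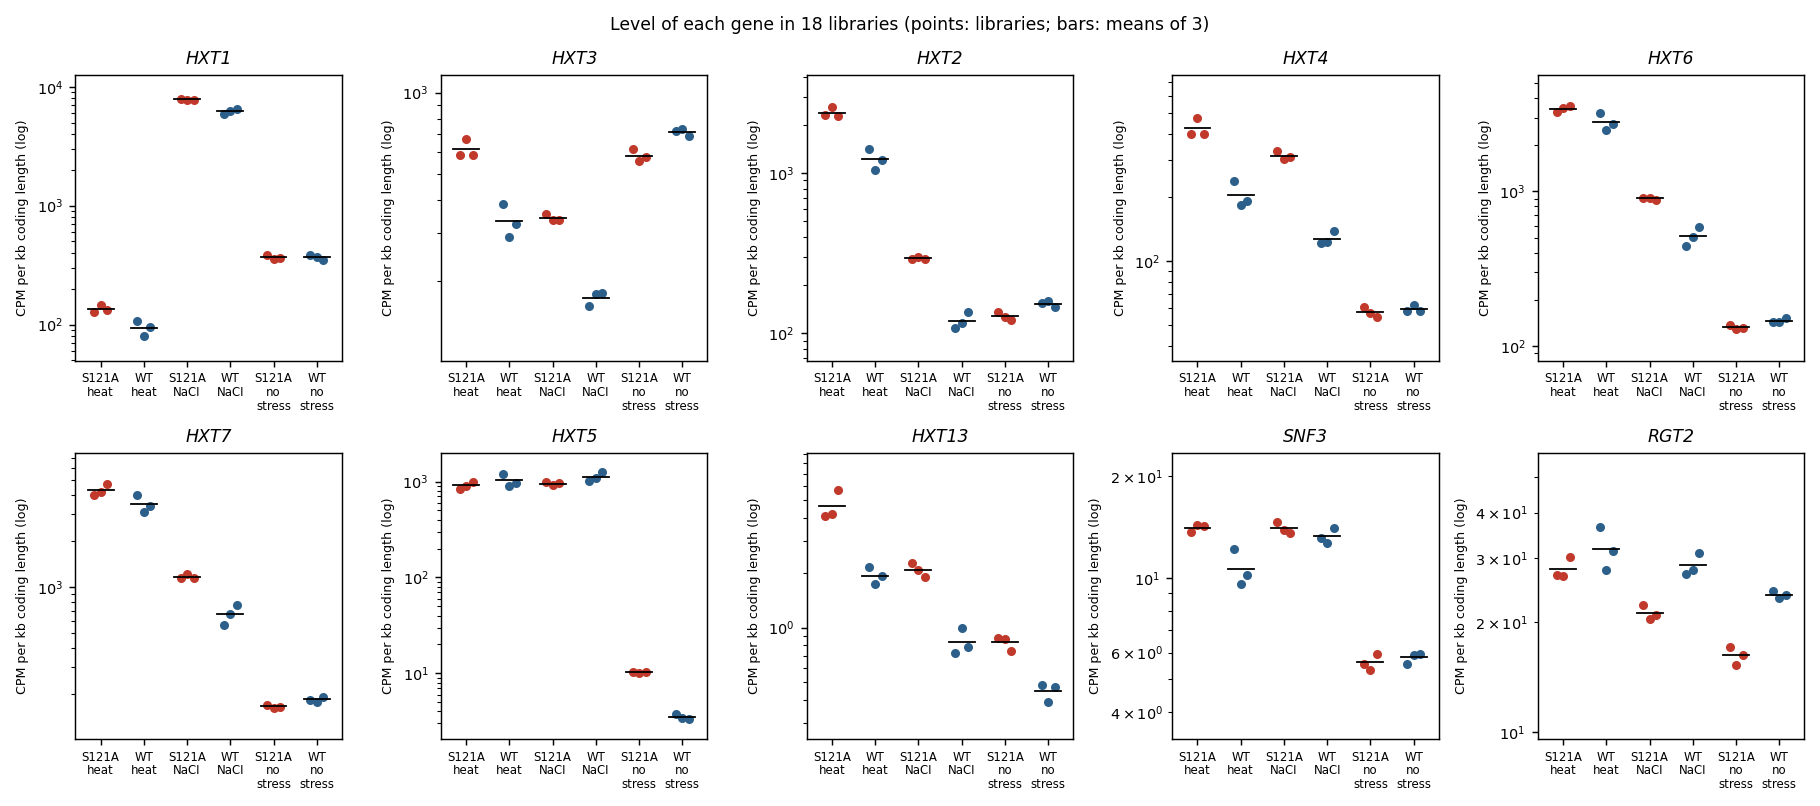
Level of each gene in CPM per kb of coding length (log axis, a different range in each panel) in the 18 libraries, with points for libraries and bars for means of 3. HXT1 is highest in NaCl and lowest in heat, HXT2, HXT4, HXT6 and HXT7 are highest in heated S121A, and HXT5 is high in both stresses and low without stress.

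HXT1, the low-affinity transporter induced by ample glucose, went opposite ways in the 2 stresses. In NaCl it stood at 13564, 13332 and 13269 CPM in the S121A libraries and 10194, 10730.2 and 11093 CPM in the WT libraries. In heat it stood at 219, 251 and 225 CPM in S121A and 185, 136 and 162 CPM in WT. Without stress it stood at 658, 606 and 621 CPM in S121A and 659.8, 639 and 601 CPM in WT. Every salt-treated library was above every unstressed one, and every heated library was below. NaCl raised HXT1 on the log2 scale by 4.41 ± 0.10 (adjusted p = 1.51e-18) in S121A and 4.07 ± 0.10 (adjusted p = 2.98e-18) in WT (SE from the model, n = 3 per group). Heat lowered it, with log2 fold changes of -1.44 ± 0.09 (adjusted p = 8.54e-12) in S121A and -1.98 ± 0.09 (adjusted p = 4.94e-14) in WT. The highest group mean, S121A in NaCl, was 83.2 times the lowest, heated WT. Between genotypes HXT1 was higher in S121A by 0.53 ± 0.09 (adjusted p = 0.000156) in heat and 0.33 ± 0.09 (adjusted p = 0.0109) in NaCl, and the 3-library ranges did not overlap in either. The NaCl call ended when each chromosome was scaled by its own median, at 0.20 (adjusted p = 0.0976, range 0.00218 to 0.0976), where the bracketed range is that of the adjusted p over every alternative tried. Other chromosome VIII genes had a median S121A over WT log2 fold change of 0.17 in heat, 0.09 in NaCl and 0.07 without stress, against -0.03, -0.03 and -0.06 for genes elsewhere. Without stress the HXT1 difference was -0.01 ± 0.09 (adjusted p = 0.941) and the ranges overlapped. The heat response was less negative in S121A by 0.54 ± 0.13 (adjusted p = 0.00487), while for NaCl the response difference was 0.34 ± 0.13 (adjusted p = 0.116).

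HXT3, the other low-affinity transporter, fell in WT under both stresses. It stood at 998, 1145 and 1002 CPM in heated S121A against 655, 496 and 553 CPM in heated WT. In NaCl it stood at 600.3, 572 and 572 CPM in S121A against 275, 304 and 306 CPM in WT. Without stress it stood at 1054, 947 and 981 CPM in S121A against 1222, 1243 and 1176 CPM in WT. WT libraries were highest without stress, while heated and unstressed S121A libraries overlapped. The heat response was 0.08 ± 0.09 (adjusted p = 0.435) in S121A, not called, and -1.10 ± 0.09 (adjusted p = 5.26e-10) in WT, a fall. With library totals alone the S121A value turned to -0.53 (adjusted p = 4.22e-06, range 4.22e-06 to 0.944), a called fall. NaCl lowered HXT3, with log2 fold changes of -0.77 ± 0.09 (adjusted p = 1.52e-07) in S121A and -2.04 ± 0.09 (adjusted p = 4.01e-14) in WT. Response differences were 1.17 ± 0.13 (adjusted p = 1.59e-06) for heat and 1.27 ± 0.13 (adjusted p = 1.66e-06) for NaCl. HXT3 was thus higher in S121A by 0.88 ± 0.09 (adjusted p = 2.83e-07) in heat and 0.98 ± 0.09 (adjusted p = 1.39e-07) in NaCl.

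Unstressed S121A had less HXT3 than unstressed WT, with a log2 fold change of -0.29 ± 0.09 (adjusted p = 0.0247). That call ended with library totals alone, at -0.12 (adjusted p = 0.268, range 0.00741 to 0.268), and with per-chromosome scaling, at -0.26 (adjusted p = 0.0736). It also ended without S121A no stress replicate 2 or 3 (adjusted p of 0.104 and 0.0758) and without WT no stress replicate 1 or 2 (0.0698 and 0.0755). HXT6 and HXT7, which share 13.1% of the HXT3 windows, were far above it in heat. Per kb of coding length the means in heat were 615 for HXT3, 3409 for HXT6 and 4306 for HXT7 in S121A, and 333, 2803 and 3481 in WT (CPM per kb). The part of such shared reads in the HXT3 counts was not tested.

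HXT2, a high-affinity transporter with no shared windows, rose far more in heat than in NaCl. It stood at 3763, 4191 and 3695 CPM in heated S121A against 2307, 1708 and 1965 CPM in heated WT. In NaCl it stood at 473, 485 and 474 CPM in S121A against 176, 188 and 222 CPM in WT, and without stress at 222, 206 and 197 CPM in S121A against 249.98, 259 and 239 CPM in WT. Salt-treated S121A libraries lay above all unstressed libraries, while every salt-treated WT library lay below every unstressed WT library. Heat raised HXT2 by 4.22 ± 0.11 (adjusted p = 7.38e-18) in S121A and 3.00 ± 0.11 (adjusted p = 5e-16) in WT. NaCl moved it in opposite directions, with log2 fold changes of 1.20 ± 0.10 (adjusted p = 1.31e-09) in S121A and -0.35 ± 0.10 (adjusted p = 0.00353) in WT. The response difference was 1.55 ± 0.14 (adjusted p = 1.03e-06) for NaCl and 1.22 ± 0.14 (adjusted p = 3.81e-06) for heat. HXT2 was therefore 2.44-fold higher in S121A in NaCl, a log2 fold change of 1.29 ± 0.10 (adjusted p = 2.39e-08), and 1.95-fold higher in heat, at 0.96 ± 0.10 (adjusted p = 3.89e-07). Without stress it was -0.26 ± 0.10 (adjusted p = 0.0668), not called, although the ranges did not overlap. With the unstressed libraries fitted alone that value was -0.21 (adjusted p = 0.00688, range 0.00688 to 0.461), called lower in S121A.

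HXT4, a transporter of high to intermediate affinity between MSR1 and HXT1 on chromosome VIII, rose in both stresses and more so in S121A. It shared 1.72% of its windows with HXT3 and 0.773% with HXT1. It stood at 693, 821 and 691 CPM in heated S121A against 413, 318 and 333 CPM in heated WT. In NaCl it stood at 570.3, 526 and 539.9 CPM in S121A against 211, 213 and 241 CPM in WT, and without stress at 105, 99.0 and 94.2 CPM in S121A against 101, 108 and 101 CPM in WT. The genotypes overlapped without stress and were apart in both stresses. Heat raised it by 2.88 ± 0.10 (adjusted p = 4.84e-16) in S121A and 1.78 ± 0.10 (adjusted p = 6.73e-13) in WT, and NaCl by 2.45 ± 0.10 (adjusted p = 9.41e-15) in S121A and 1.10 ± 0.10 (adjusted p = 2.09e-09) in WT. Response differences were 1.11 ± 0.13 (adjusted p = 7.06e-06) for heat and 1.36 ± 0.14 (adjusted p = 1.66e-06) for NaCl. In S121A over WT it was 1.05 ± 0.10 (adjusted p = 7.34e-08) in heat and 1.30 ± 0.10 (adjusted p = 1.2e-08) in NaCl, and -0.06 ± 0.10 (adjusted p = 0.73) without stress. The gene next to it, MSR1, had S121A over WT log2 fold changes of 0.06 in heat, 0.09 in NaCl and 0.07 without stress. Heat was above NaCl by 0.43 ± 0.09 (adjusted p = 0.000539) in S121A and 0.68 ± 0.10 (adjusted p = 3.16e-06) in WT, and the S121A value with library totals alone was 0.11 (adjusted p = 0.278, range 1.81e-05 to 0.278).

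HXT6 and HXT7, the near-identical high-affinity pair, rose strongly in heat. HXT7 stood at 6864, 7204 and 8061 CPM in heated S121A against 6799.6, 5319 and 5769 CPM in heated WT. HXT7 values in NaCl were 1979.7, 2079 and 1978 CPM in S121A against 978, 1146 and 1303 CPM in WT. Without stress they were 292, 281 and 285 CPM in S121A against 315, 306 and 332 CPM in WT. The order was the same for HXT6, from unstressed S121A at 227 ± 7.12 CPM through unstressed WT, WT in NaCl, S121A in NaCl and heated WT to heated S121A at 5840.4 ± 272 CPM (SD, n = 3). No 2 neighbours in that order overlapped for either gene. Heat raised HXT7 by 4.69 ± 0.12 (adjusted p = 1.81e-18) in S121A and 4.23 ± 0.11 (adjusted p = 4.1e-18) in WT, and HXT6 by 4.69 ± 0.11 (adjusted p = 8.34e-19) and 4.26 ± 0.11 (adjusted p = 1.65e-18). NaCl raised HXT7 by 2.82 ± 0.11 (adjusted p = 2.4e-15) in S121A and 1.85 ± 0.10 (adjusted p = 1.09e-12) in WT, and HXT6 by 2.77 ± 0.10 (adjusted p = 1.33e-15) and 1.81 ± 0.10 (adjusted p = 6.21e-13).

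Between genotypes the pair differed most in NaCl, where S121A was higher by 0.82 ± 0.10 (adjusted p = 4.51e-06) for HXT7 and 0.81 ± 0.09 (adjusted p = 2.66e-06) for HXT6. The NaCl response differences were 0.97 ± 0.14 (adjusted p = 1e-04) and 0.95 ± 0.13 (adjusted p = 6.47e-05). In heat S121A was higher by 0.31 ± 0.10 (adjusted p = 0.0217) for HXT7 and 0.28 ± 0.09 (adjusted p = 0.0253) for HXT6, and these calls depended on single libraries. Without WT heat replicate 2, WT heat replicate 3 or S121A heat replicate 3 the adjusted p was 0.116, 0.0774 and 0.0914 for HXT7. For HXT6 it was 0.136, 0.0904 and 0.0717, and 0.0584 without S121A heat replicate 2. With the heated libraries alone it was 0.0663 for HXT7 and 0.0785 for HXT6. Heat response differences were 0.46 ± 0.14 (adjusted p = 0.0236) and 0.43 ± 0.13 (adjusted p = 0.0259), and with library totals alone they were 0.24 (adjusted p = 0.117, range 0.00281 to 0.117) and 0.21 (adjusted p = 0.151, range 0.00217 to 0.151). Those 2 calls also ended without WT no stress replicate 3 (adjusted p = 0.0529), S121A no stress replicate 2 (0.0573), WT heat replicate 2 (0.0755), WT heat replicate 3 (0.0583) or S121A heat replicate 3 (0.0549) for HXT7, and without WT no stress replicate 3 (adjusted p = 0.056), S121A no stress replicate 2 (0.0654), S121A no stress replicate 3 (0.0518), WT heat replicate 2 (0.0831) or WT heat replicate 3 (0.0646) for HXT6. Over all alternatives the adjusted p of the heat comparison ran 0.00276 to 0.116 for HXT7 and 0.00211 to 0.136 for HXT6. Without stress the pair differed by -0.15 ± 0.10 (adjusted p = 0.294) and -0.14 ± 0.09 (adjusted p = 0.294), not called.

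**Figure D4:**
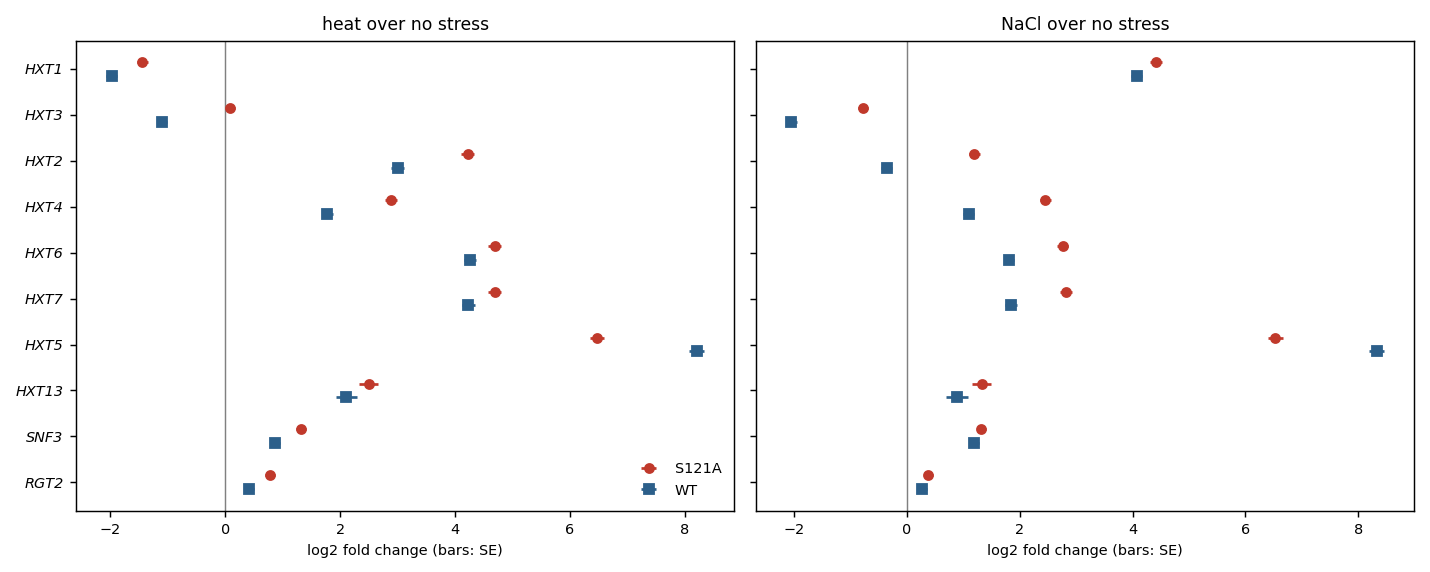
Log2 fold change of each gene in heat (left) and in NaCl (right) over no stress, with S121A as circles, WT as squares and bars for the SE. HXT2 in NaCl lies on opposite sides of 0 in the 2 genotypes, and HXT5 is the gene whose S121A point lies left of its WT point in both panels.

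HXT5, known from slow growth and stress, had the widest span of the 10 genes. Without stress it stood at 18.6, 17.9 and 18.5 CPM in S121A against 6.63, 6.13 and 5.88 CPM in WT. In heat it stood at 1487, 1603 and 1776 CPM in S121A against 2146, 1606 and 1737 CPM in WT, and in NaCl at 1744, 1629.8 and 1715 CPM in S121A against 1819, 1947 and 2215 CPM in WT. Unstressed S121A libraries were all above unstressed WT, and the genotypes overlapped in heat. In NaCl every S121A library was below every WT library. Unstressed S121A had 2.95 times the WT level, a log2 fold change of 1.56 ± 0.11 (adjusted p = 8.96e-09). Heat raised HXT5 by 6.47 ± 0.12 (adjusted p = 7.46e-20) in S121A and 8.20 ± 0.14 (adjusted p = 8.09e-21) in WT, and NaCl raised it by 6.53 ± 0.13 (adjusted p = 1.16e-19) in S121A and 8.33 ± 0.14 (adjusted p = 8.77e-21) in WT. The response difference was -1.73 ± 0.15 (adjusted p = 1.03e-07) for heat and -1.79 ± 0.15 (adjusted p = 3.49e-07) for NaCl, of about the size of the unstressed difference with the sign turned. Between the stressed genotypes it was -0.17 ± 0.10 (adjusted p = 0.181) in heat and -0.23 ± 0.10 (adjusted p = 0.0909) in NaCl, not called. Both were called lower in S121A with library totals alone, at -0.22 (adjusted p = 0.0322, range 0.00907 to 0.735) and -0.23 (adjusted p = 0.0381, range 0.00866 to 0.334). With per-chromosome scaling they were called at -0.34 (adjusted p = 0.00907) and -0.36 (adjusted p = 0.00866).

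Heat and NaCl gave HXT5 nearly the same level, with a heat over NaCl log2 fold change of -0.06 ± 0.10 (adjusted p = 0.579) in S121A and -0.12 ± 0.10 (adjusted p = 0.274) in WT. With library totals alone both were called lower in heat, at -0.39 (adjusted p = 0.000184, range 0.000184 to 0.971) and -0.40 (adjusted p = 0.000163, range 0.000163 to 0.749), and the WT value was also called without WT heat replicate 1, at -0.26 (adjusted p = 0.0151). HXT1, which shares 70 windows of 50 bases with HXT5, was high in NaCl and low in heat, and HXT5 was high in both. PAL2, the neighbouring gene on the other side of HXT5, had S121A over WT log2 fold changes of 0.31 in heat, 0.04 in NaCl and 0.06 without stress.

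HXT13 was the least abundant member per kb of coding length in all 6 groups, and it was higher in S121A in every condition. It had 265, 237 and 359 counts in the heated S121A libraries against 122, 129 and 142 in heated WT. In NaCl it had 181, 155 and 141 counts in S121A against 57, 77 and 63 in WT, and without stress 84, 89 and 84 in S121A against 43, 35 and 41 in WT. The genotypes did not overlap in any condition. In S121A over WT it was 1.28 ± 0.16 (adjusted p = 3.6e-06) in heat, 1.32 ± 0.17 (adjusted p = 9.56e-06) in NaCl and 0.89 ± 0.19 (adjusted p = 0.00223) without stress. Heat raised it by 2.50 ± 0.17 (adjusted p = 1.78e-11) in S121A and 2.10 ± 0.18 (adjusted p = 1.36e-09) in WT, and NaCl by 1.33 ± 0.17 (adjusted p = 4.97e-07) in S121A and 0.89 ± 0.19 (adjusted p = 0.000325) in WT. The response differences were 0.39 ± 0.25 (adjusted p = 0.269) for heat and 0.44 ± 0.26 (adjusted p = 0.362) for NaCl, not called. Summed with HXT15, HXT16 and HXT17, with which it shares windows, the heat response difference was called at 0.59 (adjusted p = 0.0243, range 0.0243 to 0.626).

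SNF3, the sensor of low glucose, rose in both stresses. It stood at 36.2, 38.0 and 37.8 CPM in heated S121A against 32.3, 25.4 and 27.1 CPM in heated WT. In NaCl it stood at 39.0, 36.9 and 36.1 CPM in S121A against 34.8, 33.7 and 37.2 CPM in WT, and without stress at 14.8, 14.1 and 15.8 CPM in S121A against 14.8, 15.7 and 15.8 CPM in WT. The genotypes overlapped in NaCl and without stress, and were apart in heat. Heat raised SNF3 by 1.32 ± 0.08 (adjusted p = 6.88e-12) in S121A and 0.87 ± 0.08 (adjusted p = 5.9e-09) in WT, and NaCl by 1.32 ± 0.08 (adjusted p = 1.04e-11) in S121A and 1.19 ± 0.08 (adjusted p = 4.99e-11) in WT. Heated S121A exceeded heated WT by 0.40 ± 0.08 (adjusted p = 0.00078), while the genotypes differed by 0.08 ± 0.08 (adjusted p = 0.506) in NaCl and -0.05 ± 0.08 (adjusted p = 0.732) without stress. The heat response difference was 0.45 ± 0.12 (adjusted p = 0.00881), which was 0.24 (adjusted p = 0.128, range 0.000396 to 0.128) with library totals alone, and the NaCl one was 0.13 ± 0.12 (adjusted p = 0.587). Heat and NaCl differed by 0.00 ± 0.08 in S121A (adjusted p = 0.995) and by -0.32 ± 0.08 (adjusted p = 0.00185) in WT. With library totals alone the S121A value turned to a called -0.32 (adjusted p = 0.00159, range 0.00159 to 1.0).

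RGT2, the sensor of high glucose, was lower in S121A without stress and in NaCl. It stood at 39.3, 35.1 and 37.2 CPM in unstressed S121A against 55.8, 53.3 and 54.5 CPM in unstressed WT. In NaCl it stood at 51.1, 46.7 and 47.9 CPM in S121A against 62.3, 63.9 and 70.8 CPM in WT, and in heat at 61.8, 61.2 and 69.3 CPM in S121A against 83.5, 63.8 and 71.7 CPM in WT. The genotypes overlapped only in heat. The S121A over WT log2 fold change was -0.55 ± 0.09 (adjusted p = 0.000152) without stress and -0.44 ± 0.09 (adjusted p = 0.000917) in NaCl. In heat the difference was -0.19 ± 0.09 (adjusted p = 0.103), not called. It was called at -0.23 (adjusted p = 0.0172, range 0.0172 to 0.503) with library totals alone and at -0.27 (adjusted p = 0.0252) without WT heat replicate 2. With a span of 1.96 times between its lowest and highest group means, RGT2 varied least of the 10 genes.

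Stress raised RGT2 by 0.79 ± 0.09 (adjusted p = 5.87e-08) in heated S121A and 0.42 ± 0.09 (adjusted p = 0.00017) in heated WT, and by 0.39 ± 0.09 (adjusted p = 0.000535) in S121A in NaCl and 0.27 ± 0.09 (adjusted p = 0.00866) in WT in NaCl. Scaled by library totals these 4 log2 fold changes, of which the first stayed called, were 0.17 (adjusted p = 0.0326, range 1.16e-15 to 0.0326), 0.02 (adjusted p = 0.784, range 2.2e-05 to 0.784), 0.10 (adjusted p = 0.226, range 0.000261 to 0.226) and 0.14 (adjusted p = 0.0849, range 0.00451 to 0.0849), and the WT NaCl call also ended without WT NaCl replicate 3 (adjusted p = 0.0541). Heat exceeded NaCl by 0.40 ± 0.09 (adjusted p = 0.00046) in S121A, or 0.08 (adjusted p = 0.359, range 3.5e-05 to 0.359) by library totals. In WT the difference was 0.15 ± 0.09 (adjusted p = 0.129), called at 0.24 (adjusted p = 0.0222, range 0.0222 to 0.67) without WT heat replicate 2. The heat response difference was 0.37 ± 0.12 (adjusted p = 0.0363), a call that was lost without WT no stress replicate 1 (adjusted p = 0.082), WT no stress replicate 2 (0.0545), WT no stress replicate 3 (0.0587), S121A no stress replicate 2 (0.103), S121A no stress replicate 3 (0.0634), WT heat replicate 2 (0.114), WT heat replicate 3 (0.0767) or S121A heat replicate 3 (0.0795). With the 12 libraries of that comparison alone it was 0.36 (adjusted p = 0.0637, range 0.00248 to 0.271), with library totals alone it was 0.15 (adjusted p = 0.271), and the NaCl response difference was 0.12 ± 0.12 (adjusted p = 0.651). Per kb of coding length, unstressed RGT2 was at 16.2 CPM per kb in S121A and 23.8 in WT, above SNF3 at 5.62 in S121A and 5.81 in WT.

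**Figure D5:**
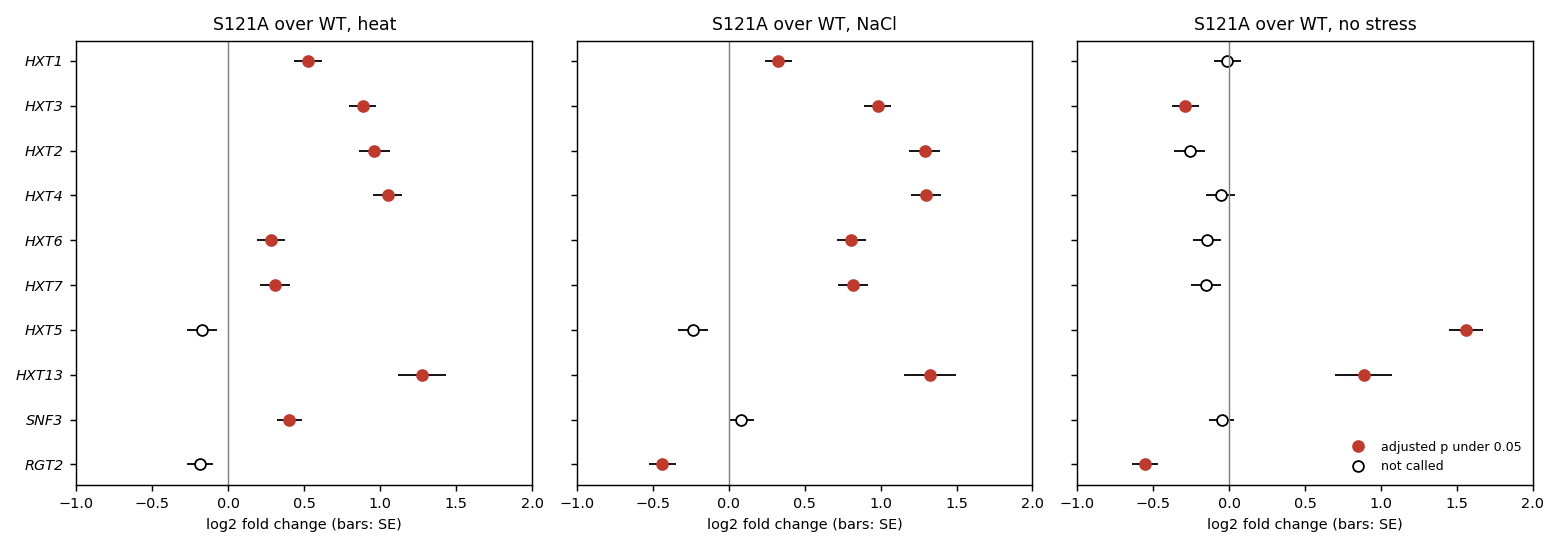
Log2 fold change of S121A over WT for each gene in heat, in NaCl and without stress (bars, SE), with filled points for an adjusted p under 0.05. HXT1, HXT2, HXT3, HXT4, HXT6, HXT7 and HXT13 lie to the right of 0 in both stresses, while without stress HXT5 lies farthest to the right and RGT2 farthest to the left.

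The groups were ordered by their means from low to high, and neighbours were compared by whether their 3-library ranges overlapped. For HXT1 the order was heated WT, heated S121A, unstressed S121A, unstressed WT, WT in NaCl and S121A in NaCl, and the unstressed groups overlapped. For HXT2 it was WT in NaCl, unstressed S121A, unstressed WT, S121A in NaCl, heated WT and heated S121A, with overlap between the first pair. For HXT3 it was WT in NaCl, heated WT, S121A in NaCl, unstressed S121A, heated S121A and unstressed WT. There heated WT overlapped S121A in NaCl, and unstressed S121A overlapped heated S121A. For HXT4 it was unstressed S121A, unstressed WT, WT in NaCl, heated WT, S121A in NaCl and heated S121A, with overlap in the first pair. For HXT5 it was unstressed WT, unstressed S121A, heated S121A, S121A in NaCl, heated WT and WT in NaCl. There each stressed group overlapped the stressed group next to it in that order. HXT13 ran from unstressed WT through unstressed S121A, WT in NaCl, heated WT and S121A in NaCl to heated S121A, with overlap of unstressed S121A with WT in NaCl and of heated WT with S121A in NaCl. SNF3 ran from unstressed S121A through unstressed WT, heated WT, WT in NaCl and S121A in NaCl to heated S121A, with overlap in the first pair and among the last 3 neighbours. RGT2 ran from unstressed S121A through S121A in NaCl, unstressed WT, heated S121A and WT in NaCl to heated WT, with overlap among the last 3.

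The other genes of the pathway were described as lists. Of 6 genes that carry the signal from the sensors (MTH1, STD1, RGT1, YCK1, YCK2 and GRR1), the corepressor gene MTH1 differed most between genotypes under stress. MTH1 averaged 20.6 ± 1.20 CPM in heated S121A and 10.9 ± 1.25 CPM in heated WT, 53.8 ± 1.54 CPM in S121A in NaCl and 33.6 ± 1.85 CPM in WT in NaCl, and 11.8 ± 0.904 CPM in unstressed S121A and 12.3 ± 0.775 CPM in unstressed WT (SD, n = 3). It was higher in S121A by 0.92 ± 0.09 (adjusted p = 2.07e-07) in heat and 0.68 ± 0.09 (adjusted p = 6.78e-06) in NaCl. Of these 6 genes 2 were called higher in heat (all genes 19.5%) and 2 in NaCl (all genes 14.6%). Without stress 0 differed by edgeR, with 1 at an unadjusted p under 0.05 and 0 by DESeq2, where 9.05% of all genes were higher and 14.1% lower. Their median S121A over WT log2 fold change was 0.0024 in heat, 0.10 in NaCl and -0.05 without stress. The other called gene, the casein kinase gene YCK1 on chromosome VIII, was higher in S121A by 0.27 ± 0.08 (adjusted p = 0.0143) in heat and 0.25 ± 0.08 (adjusted p = 0.0305) in NaCl. With per-chromosome scaling YCK1 was at 0.11 (adjusted p = 0.343) and 0.12 (adjusted p = 0.31). Heat raised 5 of the 6 in S121A (all genes 40.3%) and 3 in WT (all genes 40.6%), among them the repressor gene RGT1 at 1.21 ± 0.08 in S121A and 1.07 ± 0.08 in WT. It lowered 1 in each genotype (all genes 39.7% in S121A and 39.3% in WT), the corepressor gene STD1, at -1.31 ± 0.11 in S121A and -1.28 ± 0.11 in WT. Under NaCl 5 rose in S121A (all genes 35.8%) and 4 in WT (all genes 36.3%), with MTH1 at 2.19 ± 0.09 in S121A and 1.45 ± 0.09 in WT. The 1 that fell in each (all genes 35.3% in S121A and 37.2% in WT) was again STD1, at -0.26 ± 0.10 in S121A and -0.39 ± 0.10 in WT.

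Of 12 genes of glucose repression (MIG1, MIG2, MIG3, SNF1, SNF4, SIP1, SIP2, GAL83, REG1, GLC7, CYC8 and TUP1), the repressor gene MIG2 fell most in both stresses. MIG2 averaged 4.67 ± 0.152 CPM in heated S121A and 1.70 ± 0.236 CPM in heated WT, 12.9 ± 0.704 CPM in S121A in NaCl and 7.24 ± 1.27 CPM in WT in NaCl, and 30.2 ± 3.33 CPM in unstressed S121A and 31.6 ± 1.07 CPM in unstressed WT (SD, n = 3). Its heat over no stress log2 fold change was -2.69 ± 0.12 (adjusted p = 2.74e-14) in S121A and -4.22 ± 0.14 (adjusted p = 8.87e-17) in WT, and its NaCl one was -1.22 ± 0.11 (adjusted p = 3.66e-09) in S121A and -2.12 ± 0.12 (adjusted p = 7.76e-13) in WT. It was higher in S121A by 1.46 ± 0.14 (adjusted p = 2.16e-07) in heat and 0.84 ± 0.12 (adjusted p = 1.9e-05) in NaCl. In S121A over WT 4 of the 12 were higher and 2 lower in heat (all genes 19.5% and 14.2%), 2 and 3 in NaCl (all genes 14.6% and 9.19%), and 1 and 4 without stress (all genes 9.05% and 14.1%). The medians were -0.07, -0.02 and -0.12. TUP1 was higher in S121A by 0.77 ± 0.08 (adjusted p = 6.47e-07) in heat and 0.54 ± 0.08 (adjusted p = 7.84e-05) in NaCl, and lies on chromosome III, whose other genes had medians of 0.68 and 0.61. With per-chromosome scaling TUP1 was at 0.13 (adjusted p = 0.218) and -0.10 (adjusted p = 0.401). Without stress the kinase subunit gene SIP2 had a log2 fold change of -0.40 ± 0.12 (adjusted p = 0.0185) and the corepressor gene CYC8 one of -0.35 ± 0.12 (adjusted p = 0.0336). With per-chromosome scaling the CYC8 call ended, at -0.33 (adjusted p = 0.0672). Heat raised 9 of the 12 and lowered 2 in S121A (all genes 40.3% and 39.7%), and raised 7 and lowered 2 in WT (all genes 40.6% and 39.3%). NaCl raised 6 and lowered 1 in S121A (all genes 35.8% and 35.3%), and raised 6 and lowered 4 in WT (all genes 36.3% and 37.2%). SIP2 rose most, by 2.09 ± 0.12 in heated S121A and 1.56 ± 0.12 in heated WT.

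The 4 genes of glucose phosphorylation (HXK1, HXK2, GLK1 and EMI2) rose in heated S121A (all genes 40.3%) and in salt-treated S121A (35.8%), and all but HXK2 did in heated WT (40.6%) and salt-treated WT (36.3%). HXK1, a hexokinase gene, rose by 5.41 ± 0.11 in heated S121A and 4.64 ± 0.10 in heated WT, and by 4.05 ± 0.10 in S121A in NaCl and 3.41 ± 0.10 in WT in NaCl. The glucokinase-like gene EMI2 rose by 4.28 ± 0.09 in heated S121A and 3.54 ± 0.09 in heated WT, and by 4.05 ± 0.09 in S121A in NaCl and 3.48 ± 0.09 in WT in NaCl. Without stress both were lower in S121A, HXK1 at -0.55 ± 0.09 (adjusted p = 0.000228) and EMI2 at -0.72 ± 0.08 (adjusted p = 2.43e-06), and the other members of the list were not called. The heat response difference was positive in 4 of 4 (all genes 15.5%), with HXK1 at 0.76 ± 0.13 (adjusted p = 0.000194) and EMI2 at 0.75 ± 0.11 (adjusted p = 6.59e-05). For NaCl it was positive in 3 of 4 (all genes 6.82%). The glucokinase gene GLK1 was higher in S121A by 0.54 ± 0.10 (adjusted p = 0.00025) in heat and 0.37 ± 0.10 (adjusted p = 0.00837) in NaCl. GLK1 is on chromosome III, and with per-chromosome scaling its values were -0.10 (adjusted p = 0.452) and -0.28 (adjusted p = 0.0496), a call in the other direction in NaCl. Without stress GLK1 was at -0.10 ± 0.10 (adjusted p = 0.519), and per-chromosome scaling gave a called -0.64 (adjusted p = 0.000173).

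The remaining 10 members of the transporter family were expressed at low levels, with group means between 0.222 and 31.6 CPM. These were HXT8, HXT9, HXT10, HXT11, HXT12, HXT14, HXT15, HXT16, HXT17 and GAL2. Of them 6 were higher in S121A in heat (all genes 19.5%), 7 in NaCl (all genes 14.6%) and 5 without stress (all genes 9.05%). In each condition 0 were lower by edgeR or by DESeq2, and 1, in NaCl, was lower at an unadjusted p under 0.05. Of all genes 14.2% were lower in heat, 9.19% in NaCl and 14.1% without stress, so a count of 0 among 10 says little. The medians of the list were 0.61, 0.74 and 0.45. HXT17 was higher in S121A by 1.18 ± 0.22 (adjusted p = 0.000303) in heat and 0.67 ± 0.24 (adjusted p = 0.0461) without stress, HXT15 by 1.30 ± 0.31 (adjusted p = 0.00401) in NaCl, HXT16 by 1.16 ± 0.30 (adjusted p = 0.00596) in heat and 0.97 ± 0.32 (adjusted p = 0.0322) in NaCl, and HXT9 by 0.64 ± 0.13 (adjusted p = 0.00196) without stress. HXT15 shared 94% of its windows with HXT16, HXT9 shared 57.6% with HXT11 and HXT17 shared 26.8% with HXT13, so these counts are uncertain. GAL2, the galactose transporter gene, rose by 3.27 ± 0.11 in heated S121A and 3.62 ± 0.12 in heated WT, and by 2.90 ± 0.11 in S121A in NaCl and 2.93 ± 0.12 in WT in NaCl. HXT10 rose by 2.39 ± 0.16 in heated S121A and 3.04 ± 0.17 in heated WT, with a response difference of -0.65 ± 0.23 (adjusted p = 0.045). In NaCl 3 of the list rose in each genotype (all genes 35.8% in S121A and 36.3% in WT) and 3 fell (all genes 35.3% and 37.2%). In heat 9 rose in S121A (all genes 40.3%) and 5 in WT (all genes 40.6%).

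The genes most like each member across the 6 groups were found by the root mean square difference between centred group means of log2(CPM + 1), leaving out genes that averaged under 10 CPM. HXT5 was closest to ALD3, an aldehyde dehydrogenase gene, at 0.278, then YNL194C at 0.327 and the catalase gene CTT1 at 0.511, where the median over all genes was 3.44. HXT1 was closest to the mannoprotein gene FIT1 at 0.485 and then NFG1 at 0.609 and the proline permease gene PUT4 at 1.01 (median 2.55). HXT2 was closest to the Hsp90 cochaperone gene AHA1 at 0.449, TAH11 at 0.460 and the mitochondrial chaperonin gene HSP60 at 0.461 (median 1.70). HXT6 and HXT7, which share 95.1% of their windows, were closest to each other, at 0.0244. After that HXT6 was closest to the polyubiquitin gene UBI4 at 0.310, and HXT7 to OPI10 at 0.314 (median 1.84 for both). HXT3 was closest to PDH1 at 0.189 (median 0.823), and HXT4 to the lactate permease gene JEN1 at 0.337 (median 1.14). SNF3 was closest to CPP1 at 0.0637 (median 0.655), RGT2 to ASI1 at 0.0785 (median 0.485) and HXT13 to BNA2 at 0.209 (median 0.849). The added 1 CPM shrinks the differences of HXT13, whose group means are under 8 CPM. Among the members themselves, HXT6 and HXT7 apart, the smallest difference was that of SNF3 and RGT2 at 0.447. HXT4 and HXT13 followed at 0.488, and HXT13 and SNF3 at 0.546. Genes that vary little differ little on this measure, and 0.447 is near the RGT2 median over all genes of 0.485. HXT2 and HXT6 stood at 0.798, where their medians over all genes were 1.70 and 1.84. Among neighbours on a chromosome, HXT6 and HXT7 were the closest pair of all, and the part of their shared reads in this was not tested. HXT1 stood at 2.70 from HXT4 and 3.72 from HXT5, and HXT3 at 2.12 from HXT6 and from HXT7.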

How the data were processed

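The deposited table holds raw counts per feature, 1 column for each of the 18 libraries, with whole numbers and differing totals. Per the submitters' processing notes, the tools were TopHat2 2.0.1, DESeq2 1.10.1 and featureCounts 1.4.6-p5 and the genome was sacCer3, also named as R64. Strand, treatment of multiply mapped reads and counting of reads or fragments are not given in the sources used here. The 18 columns matched the labels, and 6025 of 6746 features matched R64 by locus tag. Features under the filter on low counts held 0.00142% of counts.

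Counts were tested with the quasi-likelihood test of edgeR 4.0.16 (R 4.3.3, robust, filterByExpr, TMM, 1 mean for each of 6 groups), with 11 contrasts, Benjamini-Hochberg adjustment over 6395 genes and a threshold of 0.05. Standard errors were taken from the test statistic. The procedure was tested on simulated data for S121A over WT without stress alone, with the same spread between libraries for all genes. The other contrasts, among them the response differences, were not tested in this way. Windows of 50 bases and motifs were read from the RefSeq R64 genome with Biopython 1.88. Alternatives were DESeq2 1.42.0, library totals, no filter, only the groups compared, a replicate block, per-chromosome scaling, summed near-identical genes and leaving out each library. All 10 members are named in every comparison. From each other list up to 2 called genes with the largest change per comparison are named, and STD1 was added after its value was seen, as the gene behind a count of 1. For each member the 3 most alike genes were found, and the closest are named. The members, the gene lists and the motifs were chosen with earlier results of these data known. Same-number libraries of S121A and WT in NaCl deviated together from their group means, with correlations of 0.205 to 0.422 over genes. In no other pair of groups were all 3 correlations over 0.1. Replicate 2 of S121A in NaCl correlated more with WT in NaCl replicate 3 (0.315) than with replicate 2 (0.205). A pairing of these libraries is therefore not established, and the labels give none. No replicate pair agreed within sampling noise.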

Additional observations from a re-analysis of the deposited data

Results flagged for a closer look

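The response to a stress differed between S121A and WT, by the test of that difference, for 6 members in NaCl and 9 in heat. Of all genes the difference was positive in 6.82% and negative in 1.53% for NaCl, and positive in 15.5% and negative in 7.08% for heat. In NaCl the log2 difference, S121A response minus WT response, was 1.55 ± 0.14 for HXT2, 1.36 ± 0.14 for HXT4 and 1.27 ± 0.13 for HXT3. It was 0.97 ± 0.14 for HXT7 and 0.95 ± 0.13 for HXT6, and -1.79 ± 0.15 for HXT5. In heat it was 1.22 ± 0.14 for HXT2, 1.17 ± 0.13 for HXT3, 1.11 ± 0.13 for HXT4 and 0.54 ± 0.13 for HXT1. It was 0.46 ± 0.14 for HXT7, 0.43 ± 0.13 for HXT6, 0.45 ± 0.12 for SNF3, 0.37 ± 0.12 for RGT2 and -1.73 ± 0.15 for HXT5. With library totals alone the heat calls of HXT6, HXT7, SNF3 and RGT2 ended, with adjusted p of 0.151, 0.117, 0.128 and 0.271, and those of HXT6, HXT7 and RGT2 also ended without single libraries. The WT and S121A unstressed libraries enter both sets, so the NaCl and heat values are not independent of each other.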

How the results depend on the processing

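Of 1483 comparisons of a member's value with an alternative, 1424 kept their side of the threshold, 45 lost a call and 12 gained one. In 2 the direction reversed with a call in at least 1 of the fits. Values called in neither fit count among the 1424 even where their sign changed. HXT1 in S121A over WT without stress was such a value, running from -0.11 to 0.16 over the alternatives. The reversed values were HXT3 in heated S121A over no stress, at -0.53, and SNF3 in heat over NaCl in S121A, at -0.32, both with library totals alone, which moves the median of all genes. With library totals alone, members called lower were 1 for S121A over WT without stress, 2 in NaCl and 2 in heat, and 2 for heat over no stress and 3 for heat over NaCl in S121A. Members with a positive heat response difference then numbered 4. With per-chromosome scaling, members called lower in S121A were 1 without stress, 2 in NaCl and 1 in heat. With 1 library left out, members called lower in S121A ranged from 1 to 2 without stress and from 0 to 1 in heat, and positive heat response differences from 5 to 8. The cause was not tested.

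Counts over all genes moved by more than 1.5 times in 3 comparisons. For S121A over WT without stress, 1480 genes were called, against 2543 with only those libraries, 869 without S121A no stress replicate 2 and 927 without WT no stress replicate 1. In heat 2156 were called, against 1218 with only those libraries. For the heat response difference 1445 were called, against 934 without S121A no stress replicate 2, 2340 without WT heat replicate 1 and 939 without WT heat replicate 2. Because same-number libraries of S121A and WT in NaCl deviated together, a replicate block was fitted in those 6 libraries alone, chosen after seeing the data. It changed no member call, with 7 higher and 1 lower in S121A as before. Over all 45 same-number pairs of libraries the correlations were -0.58 to 0.63, and 7 of 18 libraries were closest on average to their own number. The replicate block over all libraries changed no member call either, with 8 members higher in heated S121A as before. DESeq2, no filter and the summed HXT6 and HXT7 changed none either. Reads shared by near-identical genes limit HXT6, HXT7 and HXT13, and low counts limit HXT13.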
